A study of Mus musculus with 30 samples.

Results

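The genes described here encode the matrix metalloproteinases (MMPs), the tissue inhibitors of metalloproteinases (TIMPs) and the ADAMTS proteases, and they were taken by symbol alone: Mmp, Timp or Adamts followed by a number. The rule found 46 of the 53431 genes in the table, namely 23 MMP, 4 TIMP and 19 ADAMTS genes. They were followed in 2 mouse colorectal carcinoma lines of BALB/c origin, CT-26 and Colon 26. Each line was sequenced as cultured cells (3 libraries) and as subcutaneous tumors on the flank of female mice of the BALB/c strain, taken at about 100, 400 or 800 mm3 (4 libraries for each size), which makes 30 libraries in 8 groups. The measured volumes were 103 to 146, 400 to 465 and 810 to 939 mm3 in CT-26, and 103 to 125, 402 to 467 and 808 to 963 mm3 in Colon 26. The labels name no allele or transgene for any group, and no sample is labelled with an antibody, so the tumors were taken as untreated although the submitted treatment text describes dosing.

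MMPs are zinc-dependent endopeptidases that cleave collagens, elastin, proteoglycans and many growth factors and receptors. Most are secreted as inactive precursors, and they are held in check by TIMPs, which bind the active site. The ADAMTS proteases share the metalloprotease fold and carry thrombospondin repeats: some cleave the proteoglycans aggrecan and versican, others remove the amino-terminal propeptide of fibrillar procollagens, and several have less well defined substrates. In tumors these enzymes come from the cancer cells and from fibroblasts, macrophages and neutrophils, and in whole tumor RNA a change in the number of cells of a type cannot be told apart from a change in RNA per cell.

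Library totals ran from 21384730 to 39722586 counts. The Colon 26 cultures were the deepest group (36042940 to 39722586) and the CT-26 cultures the shallowest (21384730 to 27856380), so low genes were counted less precisely in CT-26 culture. By their labels the CT-26 cultures, the Colon 26 cultures and the tumors belong to 3 separate series of library numbers, so library series cannot be told apart from line in the culture comparison, from tissue in tumor against culture, or from either in their interaction. Replicate pairs of a group differed 3.10 to 89.9 times more than counting noise alone, and no pair was counted as 1 sample. Nothing in the labels says that the cultures were independent, so their p-values measure the spread between these libraries, which may be technical. Of 10 colon epithelium markers, Epcam, Cdh1 and Cdx1 were at 3 counts or fewer in every culture library of both lines, while 6 (CT-26) and 5 (Colon 26) of the 10 were over 3 counts in at least 1 library.

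Of the 46 genes, 18 had more than 3 counts in all 30 libraries, and 4 (Mmp1a, Mmp7, Mmp16 and Mmp21) never passed 3 counts in any. Genes were compared with one another by FPKM, which scales a count by transcript length and library depth, and each gene across libraries by CPM, a count scaled by library depth with TMM factors. Timp1 and Timp2 stood at the top: mean FPKM over the 30 libraries was 287 for Timp1, 167 for Timp2 and 59.2 for Timp3, whereas Timp4 averaged 0.011. The leading protease was Mmp14, the membrane-anchored MT1-MMP that activates pro-MMP2, at 62.3 FPKM, followed by Mmp3 (18.5), Mmp12 (16.7), Mmp11 (13.4) and Mmp19 (10.2). Adamts1 was the highest ADAMTS gene at 9.37 FPKM.

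**Figure D1:**
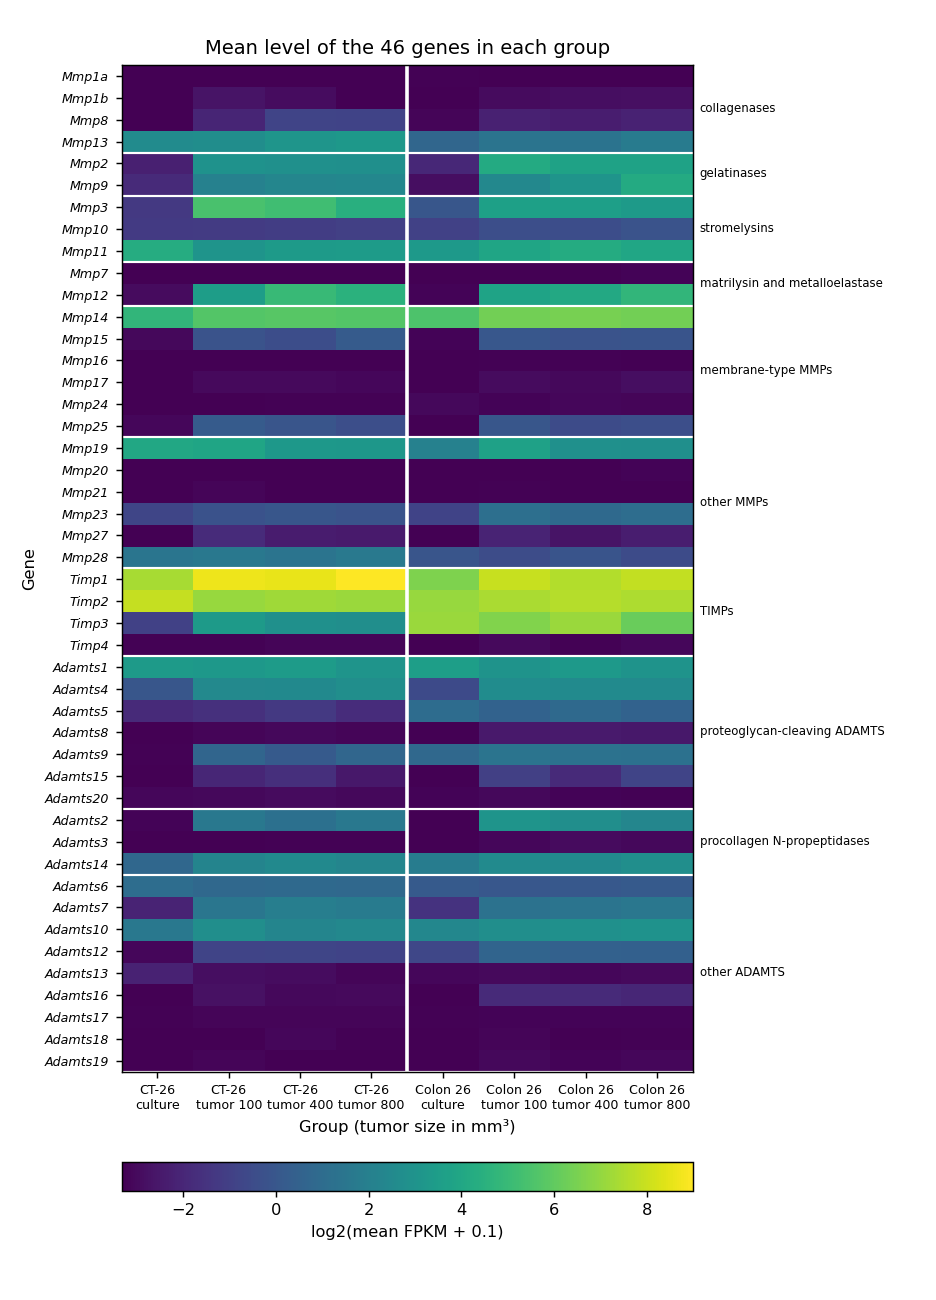
Mean level of the 46 genes in the 8 groups, as log2(mean FPKM + 0.1), with genes in rows grouped by role and groups in columns; brighter cells are higher. Timp1, Timp2 and Mmp14 are bright in every group, Timp3 is dark in CT-26 culture and bright in all 4 Colon 26 groups, and Mmp2, Mmp3, Mmp12 and Adamts2 are dark in both cultures and brighter in tumors.

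The promoters are shown for 4 genes, chosen for their levels in these data, whose line differences are described below. Mmp13 and Mmp3 lie in the cluster of 10 MMP genes on chromosome 9 (chr9:7272514-7699585 in GRCm38, 427072 bases). Timp3 (chromosome 10) and Adamts9 (chromosome 6) were low or near 0 in cultured CT-26 cells. Each sequence is the 5′ to 3′ strand of the gene up to the 250 bases before its RefSeq start (GRCm38.p6). The Timp3 window stops 40 bases short, where the annotated transcript begins, and holds 210 bases. Capitals mark TGANTCA, where N is any base, a pattern that takes in the AP-1 motif and reads the same on both strands.
Mmp13 (chr9:7272264-7272513, plus strand): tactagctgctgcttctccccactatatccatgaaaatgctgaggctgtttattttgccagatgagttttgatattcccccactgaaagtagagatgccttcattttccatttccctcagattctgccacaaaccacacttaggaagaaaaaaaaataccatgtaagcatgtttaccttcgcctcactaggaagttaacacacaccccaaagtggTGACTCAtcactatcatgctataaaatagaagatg
Mmp3 (chr9:7445572-7445821, plus strand): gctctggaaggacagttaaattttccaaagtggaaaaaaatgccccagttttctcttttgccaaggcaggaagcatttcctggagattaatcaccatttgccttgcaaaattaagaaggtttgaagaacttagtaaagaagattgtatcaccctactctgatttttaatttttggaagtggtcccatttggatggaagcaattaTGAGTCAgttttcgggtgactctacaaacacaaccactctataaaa
Timp3 (chr10:86300162-86300371, plus strand): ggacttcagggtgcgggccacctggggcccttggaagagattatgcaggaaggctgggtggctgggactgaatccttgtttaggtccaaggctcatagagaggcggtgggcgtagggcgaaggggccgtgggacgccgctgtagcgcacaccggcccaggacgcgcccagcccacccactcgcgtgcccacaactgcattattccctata
Adamts9 (chr6:92943535-92943784, minus strand): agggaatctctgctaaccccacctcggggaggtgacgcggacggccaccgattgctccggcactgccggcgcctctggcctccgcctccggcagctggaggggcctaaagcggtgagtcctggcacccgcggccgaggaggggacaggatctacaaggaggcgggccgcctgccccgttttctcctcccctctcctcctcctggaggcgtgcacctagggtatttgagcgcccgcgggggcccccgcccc

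Windows were found for 32 of the 46 genes. The motif TGANTCA stood in 8 of the 10 cluster genes and in 0 of the other 22, counting a gene where any of its windows held it, against 7.82% of the 27025 genes with a RefSeq window counted the same way. By window this is 8 of 12 and 0 of 23, against 6.75% of all 32851 windows. Mmp12 and Mmp7 have 2 windows each, and the motif stood in 1 of them; for Mmp12 it is the downstream window (chr9:7347124-7347373), not the one at the annotated gene start. It began 35 bases before the start in Mmp13, 46 in Mmp3, 44 in Mmp12, 63 in Mmp10 and Mmp7, 73 in Mmp1a, 93 in Mmp1b and 95 in Mmp20. The base at N was C in Mmp13, A in Mmp20 and G in the others. The median window held 1 CpG in the cluster genes, 15 in the other 22 and 6 over all windows, and the full 250-base windows of Timp3 and Adamts9 held 18 and 22. These letters are a description of the windows, and binding of a factor was not measured. Levels differed widely among the genes that hold it: within the cluster, Mmp3, Mmp12 and Mmp13 averaged 18.5, 16.7 and 5.11 FPKM, while Mmp1a and Mmp7 were never over 3 counts.

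To ask which of these genes differed between the lines without a host, the 3 Colon 26 cultures were compared with the 3 CT-26 cultures. Throughout, a gene was called where edgeR gave a Benjamini-Hochberg adjusted p of 0.1 or lower, over all genes tested, together with a log2 fold change of 1 or more in size. Fold changes are Colon 26 over CT-26 unless said otherwise. In culture 13 of the 23 genes tested were called (56.5%), 6 higher and 7 lower in Colon 26, where 22.9% of all genes tested were called (10.6% higher and 12.3% lower). The median absolute log2 fold change was 1.03 for these genes and 0.47 for all genes tested. Of the 23, 20 did not overlap between the lines, and 79.1% of all genes tested did not. Higher in Colon 26 were an inhibitor (Timp3), a stromelysin (Mmp3) and 4 ADAMTS genes (Adamts5, Adamts9, Adamts12 and Adamts14); lower were 5 MMP genes (Mmp9, Mmp11, Mmp13, Mmp19 and Mmp28), Adamts6 and Adamts13.

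In tumors, the lines were compared at each size, 4 against 4. At 100 mm3, 11 of 29 genes tested were called, 8 higher and 3 lower in Colon 26, against 13.2% of all genes tested (6.17% higher and 7.06% lower). At 400 mm3 the count was 10 of 28 (6 higher, 4 lower), against 14.3% (6.48% higher and 7.79% lower). At 800 mm3 it was 11 of 28 (6 higher, 5 lower), against 14.1% (6.5% higher and 7.62% lower). Genes whose libraries did not overlap numbered 16, 13 and 13, against 47.4%, 43.2% and 48.0% of all genes tested. In all, 15 genes were called at 1 or more tumor sizes, and 6 at all 3: Timp3, Adamts5 and Adamts12 were higher in Colon 26, and Mmp3, Mmp13 and Mmp28 lower. Of the 13 genes called in culture, 8 were also called at a tumor size, 6 of these in the same direction and 2 (Mmp3 and Mmp9) in the opposite one. In a fit of all 30 libraries the culture calls of these 2 genes were lost (adjusted p = 0.15 and 0.12). No library was used in more than 1 of these 4 comparisons.

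Markers of other cells also differed between the tumors of the lines. Mast cell markers were lower in Colon 26 for 4 of 4 genes at every size (median log2 fold change -3.55, -3.57 and -5.07). T cell markers were lower for 4 of 5 genes at 400 mm3 (median -1.80) and for 0 of 5 at 100 and 800 mm3, and neutrophil markers for 0, 4 and 3 of the 4 tested by rising size, with 1 higher at 100 mm3. Skeletal muscle markers were lower for 5 of 5 at 800 mm3 (median -6.53). At 100 mm3 0 of 5 were called and at 400 mm3 0 of 3 tested, with medians of 1.23 and 2.92 in the other direction. Of 8 macrophage markers 0, 1 and 0 were called. Of 6 fibroblast markers, 2, 2 and 1 were called higher in Colon 26 and 1 lower at each size. Their part in the protease differences was not tested.

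**Figure D2:**
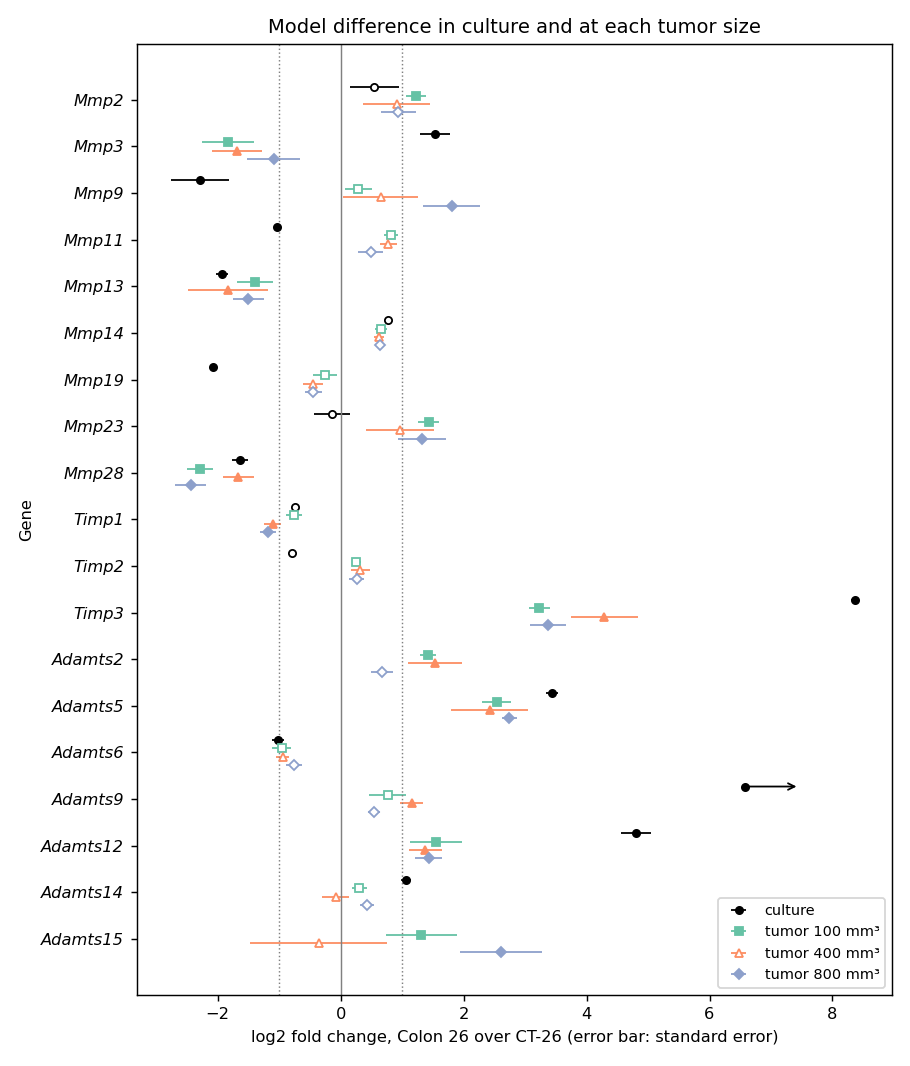
Log2 fold change of Colon 26 over CT-26 for the 19 genes described with values in every library, in culture and at each tumor size; bars are standard errors, filled symbols were called, dotted lines mark a log2 fold change of 1 either way, and the arrow marks a lower bound (Adamts9 in culture, at least 95.3-fold). Timp3, Adamts5 and Adamts12 sit to the right in all 4 comparisons, Mmp13 and Mmp28 to the left in all 4, and Mmp3 on the right in culture but on the left in tumors.

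Among the inhibitors, Timp3 was far higher in Colon 26 than in CT-26 in culture and at all 3 sizes. TIMP3 is the TIMP that binds to the extracellular matrix and also inhibits ADAM17 and several ADAMTS proteases. In culture its level was 2.03, 2.13 and 1.85 CPM for CT-26, whereas the Colon 26 cultures read 669, 662 and 701 CPM, a log2 fold change of 8.36 ± 0.05 (SE, adjusted p = 6.4e-22). In CT-26 tumors it read 49.3, 53.5, 54.3 and 37.1 CPM at 100 mm3, 34.3, 49.6, 18.8 and 35.3 at 400 mm3, and 30.5, 29.6, 35.7 and 31.2 at 800 mm3. All 12 of these libraries lay above the CT-26 cultures and below every Colon 26 library. The Colon 26 tumors read 599, 448, 391 and 395 CPM at 100 mm3, 168, 1019, 791 and 727 at 400 mm3, and 469, 175, 247 and 439 at 800 mm3. The log2 fold change was 3.23 ± 0.17, 4.29 ± 0.54 and 3.37 ± 0.29 at the 3 sizes (adjusted p = 2.5e-06, 3.1e-04 and 8.6e-06). The lowest Colon 26 tumor at 400 mm3 was also the library with the highest summed skeletal muscle markers of the 30 (2423 CPM), whereas replicate 2 of 800 mm3, at 175 CPM, had muscle markers of at most 1.74 CPM; the part of muscle was not tested. Timp3 shares exon sequence with Syn3 on the other strand, and Syn3 averaged 0.19 CPM in CT-26 culture and 0.15 CPM in Colon 26 culture.

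Timp1, a secreted inhibitor induced by cytokines and growth factors, ran the other way. Cultured CT-26 cells held 141, 143 and 139 CPM and cultured Colon 26 cells 85.9, 84.7 and 87.3 CPM, a log2 fold change of -0.75 ± 0.03 that was under the fold threshold. The CT-26 tumors read 423, 277, 379 and 309 CPM at 100 mm3, 358, 319, 402 and 285 at 400 mm3 and 363, 412, 498 and 503 at 800 mm3. Values in Colon 26 tumors were 203, 205, 223 and 191, then 174, 127, 166 and 164, and then 179.5, 228, 165 and 214 CPM. Every CT-26 tumor was thus above every Colon 26 tumor, and the gene was called at 400 mm3 (-1.10 ± 0.14, adjusted p = 3.0e-04) and 800 mm3 (-1.18 ± 0.13, adjusted p = 4.8e-05). Without the second Colon 26 tumor of 400 mm3 the change at that size was -0.99, just under the fold threshold.

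Timp2, which both inhibits MMPs and helps MMP14 to activate pro-MMP2, was called in none of the 4 comparisons. Its levels were 810.0, 922 and 883 CPM in CT-26 culture and 512, 494 and 538 CPM in Colon 26 culture. Across CT-26 tumors it read 475, 492, 541 and 532, then 502, 567, 706 and 547, and then 404, 596, 514 and 599.7 CPM by rising size. Colon 26 tumors held 694, 554, 576 and 619, then 519.6, 849.5, 764 and 769, and then 708, 581, 606 and 658 CPM. The log2 fold change was -0.80 in culture and 0.26, 0.32 and 0.26 in tumors, and the lines did not overlap in culture or at 100 mm3.

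**Figure D3:**
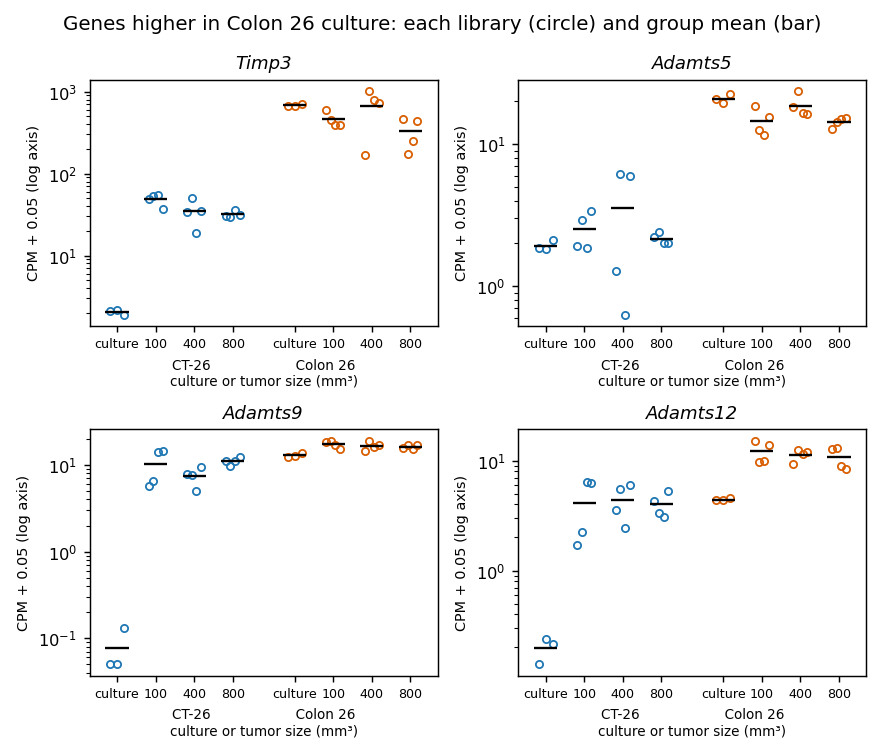
CPM of Timp3, Adamts5, Adamts9 and Adamts12 in each of the 30 libraries (circles, on a log axis after adding 0.05) with group means (bars), CT-26 in blue and Colon 26 in orange. In culture the Colon 26 circles lie far above the CT-26 circles in all 4 panels. For Timp3, Adamts9 and Adamts12 the gap is much smaller in tumors, though Timp3 circles of the lines stay far apart.

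Among the ADAMTS genes that cleave proteoglycans, Adamts5 and Adamts9 separated the lines in culture. Adamts5 encodes the aggrecanase ADAMTS-5. It read 1.8, 1.79 and 2.06 CPM in CT-26 culture against 20.7, 19.4 and 22.4 CPM in Colon 26 culture (log2 fold change 3.43 ± 0.10, adjusted p = 1.9e-14). CT-26 tumors held 1.87, 2.88, 1.81 and 3.34 CPM at 100 mm3, 1.22, 6.16, 0.581 and 5.96 at 400 mm3 and 2.16, 2.35, 1.98 and 1.98 at 800 mm3. Colon 26 tumors held 18.4, 12.6, 11.5 and 15.4, then 18.1, 23.7, 16.5 and 16.2, and then 12.8, 14.3, 15.0 and 15.2 CPM. The lines did not overlap at any size, and the change was 2.54 ± 0.24, 2.42 ± 0.63 and 2.74 ± 0.12 (adjusted p = 4.2e-05, 0.013 and 1.7e-07). The line difference was smaller in tumors of 100 mm3 than in culture by 0.89 on the log2 scale (interaction -0.89 ± 0.30, adjusted p = 0.026), under the fold threshold, and it passed (-1.01) without CT-26 tumor replicate 3.

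Adamts9, a versican-cleaving protease also involved in ciliogenesis, was near silent in CT-26 culture. The CT-26 cultures read 0, 0 and 0.0822 CPM, all at 3 counts or fewer, and the Colon 26 cultures 12.5, 12.5 and 13.6 CPM, which is at least 95.3-fold higher. In CT-26 tumors it stood at 5.73, 6.56, 14.2 and 14.4 CPM at 100 mm3, 7.81, 7.61, 4.96 and 9.53 at 400 mm3 and 11.1, 9.74, 11.1 and 12.2 at 800 mm3. In Colon 26 tumors the level was 18.6, 18.8, 17.0 and 15.3, then 14.4, 19.1, 16.1 and 16.8, and then 15.5, 17.0, 15.2 and 17.0 CPM. Although no size showed overlap, among the tumor sizes the gene was called at 400 mm3 (1.15 ± 0.19, adjusted p = 0.0011), and the changes at 100 and 800 mm3 were 0.76 and 0.54. The opposite-strand genes that share exon sequence with it, Gm15737 and A730049H05Rik, averaged at most 0.11 CPM in any group.

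Adamts15, a versican-cleaving ADAMTS, was at or near 0 in both cultures. Its tumor levels were low and scattered: 0.249, 1.09, 0.499 and 1.79, then 0.473, 3.37, 0 and 1.45, and then 0.669, 0.494, 0.369 and 0.278 CPM in CT-26, and 4.44, 1.49, 1.42 and 1.86, then 1.84, 0.116, 0.246 and 1.89, and then 0.548, 5.81, 1.28 and 3.36 CPM in Colon 26. The lines overlapped at all 3 sizes. It was called higher in Colon 26 at 100 mm3 (1.31 ± 0.58, adjusted p = 0.09) and 800 mm3 (2.60 ± 0.67, adjusted p = 0.0078), and the call at 100 mm3 was lost without any 1 of 5 libraries, with changes of 0.80 to 1.40: CT-26 replicates 1, 2 and 3 and Colon 26 replicates 1 and 4.

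Of the procollagen N-propeptidases, which trim fibrillar procollagens, Adamts2 was read in tumors and hardly in culture. The cultures read 0.0901, 0.0373 and 0.0411 CPM for CT-26 and 0 in all 3 Colon 26 libraries. CT-26 tumors held 15.98, 21.7, 24.8 and 23.9 CPM at 100 mm3, 10.3, 21.6, 5.73 and 28.9 at 400 mm3 and 17.9, 17.3, 23.2 and 27.8 at 800 mm3. In Colon 26 tumors it read 56.3, 58.7, 61.6 and 55.0, then 35.8, 59.8, 56.5 and 39.3, and then 33.6, 43.3, 26.9 and 35.0 CPM. It was called at 100 mm3 (1.42 ± 0.13, adjusted p = 3.3e-05) and 400 mm3 (1.53 ± 0.44, adjusted p = 0.02), where the lines did not overlap. At 800 mm3 they overlapped and the change was 0.68 ± 0.18. Summed fibroblast markers (6 genes, all over 3 counts in the tumors) ranged from 827 to 1607 CPM for CT-26 and 1406 to 1967 CPM in Colon 26 tumors of 100 mm3, and from 832 to 1043 and 838 to 2038 CPM at 800 mm3, and their part in the Adamts2 difference was not tested.

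Adamts14, another procollagen N-propeptidase, read 8.29, 8.14 and 8.84 CPM in CT-26 culture and 16.3, 19.4 and 18.3 CPM in Colon 26 culture (1.07 ± 0.08, adjusted p = 3.4e-09). In tumors it read 23.3, 24.4, 18.8 and 29.0, then 32.5, 32.1, 33.9 and 22.4, and then 23.7, 22.6, 28.1 and 27.0 CPM in CT-26, and 27.1, 28.6, 31.4 and 31.1, then 40.6, 22.9, 25.5 and 24.3, and then 31.0, 41.3, 33.1 and 31.7 CPM in Colon 26. The lines overlapped at 100 and 400 mm3 and were apart at 800 mm3, and none of the tumor differences was called.

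Adamts12, which degrades cartilage oligomeric matrix protein, read 0.0901, 0.187 and 0.164 CPM in CT-26 culture and 4.35, 4.31 and 4.47 CPM in Colon 26 culture (4.80 ± 0.24, adjusted p = 2.2e-11). CT-26 tumors held 1.66, 2.19, 6.34 and 6.15 CPM at 100 mm3, 3.51, 5.47, 2.4 and 5.96 at 400 mm3 and 4.2, 3.28, 2.99 and 5.28 at 800 mm3. The Colon 26 tumors gave 15.2, 9.6, 9.95 and 13.7, then 9.2, 12.4, 11.3 and 12.0, and then 12.7, 13.0, 8.8 and 8.41 CPM, above every CT-26 tumor. The change was 1.56 ± 0.42, 1.37 ± 0.27 and 1.43 ± 0.22 (adjusted p = 0.014, 0.003 and 3.5e-04). Adamts6 lay in the other direction. It held 13.2, 11.6 and 13.3 CPM in CT-26 culture and 5.82, 6.78 and 6.6 CPM in Colon 26 culture (-1.02 ± 0.09, adjusted p = 2.9e-08), 9.13, 13.4, 12.6 and 8.94, then 11.5, 11.4, 10.7 and 12.6, and then 10.4, 9.74, 12.5 and 11.4 CPM in CT-26 tumors, and 5.65, 6.22, 5.14 and 5.7, then 5.55, 5.87, 6.79 and 5.75, and then 7.48, 5.43, 6.45 and 6.95 CPM in Colon 26 tumors. No Colon 26 tumor overlapped a CT-26 tumor, but the changes of -0.96, -0.94 and -0.76 were under the fold threshold. Without CT-26 replicate 1 or 4 the change at 100 mm3 was called (-1.02 and -1.05), as it was at 400 mm3 without Colon 26 replicate 3 (-1.003), and the culture call was lost without CT-26 replicate 1 or 3 or Colon 26 replicate 1 (-0.98 to -0.95). The low gene Adamts16 was called at 100 mm3 (1.80 ± 0.54) and 400 mm3 (3.28 ± 0.54), with Colon 26 means of 0.86 and 0.88 CPM against 0.24 and 0.09 CPM. Adamts13, which cleaves von Willebrand factor, was called lower in Colon 26 culture, where every library was at 3 counts or fewer. Set against a floor of 3 counts it was 5.01-fold lower. CT-26 culture was low as well (0.405, 0.373 and 0.493 CPM), and with limma the change was -0.96 and was not called.

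Turning to the MMPs, the stromelysin Mmp3, which cleaves proteoglycans and activates other pro-MMPs, was called higher in Colon 26 culture and lower in Colon 26 tumors. It read 0.586, 0.522 and 0.534 CPM in CT-26 culture and 1.5, 1.46 and 1.93 CPM in Colon 26 culture (1.54 ± 0.25, adjusted p = 3.0e-05), and in the fit of all 30 libraries this change was 1.48 and was not called (adjusted p = 0.15). CT-26 tumors held 37.3, 76.6, 76.9 and 122 CPM at 100 mm3, 95.5, 99.4, 49.4 and 36.4 at 400 mm3 and 64.1, 27.9, 27.0 and 36.0 at 800 mm3. Their Colon 26 counterparts read 33.0, 9.55, 20.4 and 25.7, then 11.2, 17.6, 24.4 and 33.7, and then 8.74, 23.5, 9.26 and 31.8 CPM. The lines did not overlap at 100 mm3 (-1.83 ± 0.42, adjusted p = 0.006) or 400 mm3 (-1.69 ± 0.40, adjusted p = 0.0087), but they did at 800 mm3 (-1.09 ± 0.44, adjusted p = 0.058). The call at 800 mm3 was lost with DESeq2 and without CT-26 replicate 1 (-0.72), Colon 26 replicate 1 (-0.85) or Colon 26 replicate 3 (-0.86).

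The collagenase Mmp13 was lower in Colon 26 throughout. It read 15.0, 15.2 and 17.7 CPM in CT-26 culture and 4.77, 4.44 and 3.67 CPM in Colon 26 culture (-1.93 ± 0.10, adjusted p = 2.9e-11). The tumors read 25.3, 16.1, 19.1 and 8.87, then 32.3, 35.3, 23.2 and 4.13, and then 35.4, 22.7, 24.4 and 17.7 CPM in CT-26, and 5.09, 6.84, 8.16 and 6.38, then 4.5, 2.32, 10.7 and 8.91, and then 11.5, 7.73, 5.53 and 11.01 CPM in Colon 26. The lines overlapped only at 400 mm3, through 1 low CT-26 tumor, which was also the lowest in Mmp12 (1.87 CPM against 56.2 to 86.7 CPM in the other 3). The changes were -1.39 ± 0.30, -1.84 ± 0.65 and -1.5 ± 0.26 (adjusted p = 0.0041, 0.046 and 7.4e-04), and the call at 400 mm3 was lost without CT-26 replicate 1 (-1.66) or 2 (-1.59). The neutrophil collagenase Mmp8 was called lower in Colon 26 at 800 mm3 (-1.90 ± 0.62, adjusted p = 0.026), with means of 0.29 against 1.11 CPM. Without the highest library, CT-26 replicate 1 at 2.82 CPM, the change was -0.87 and was not called. That library also had the highest summed neutrophil markers of its group (72.9 CPM against 16.6 to 18.8 CPM), with Ly6g at 3 counts or fewer in all of them. The part of neutrophils in the Mmp8 difference was not tested.

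**Figure D4:**
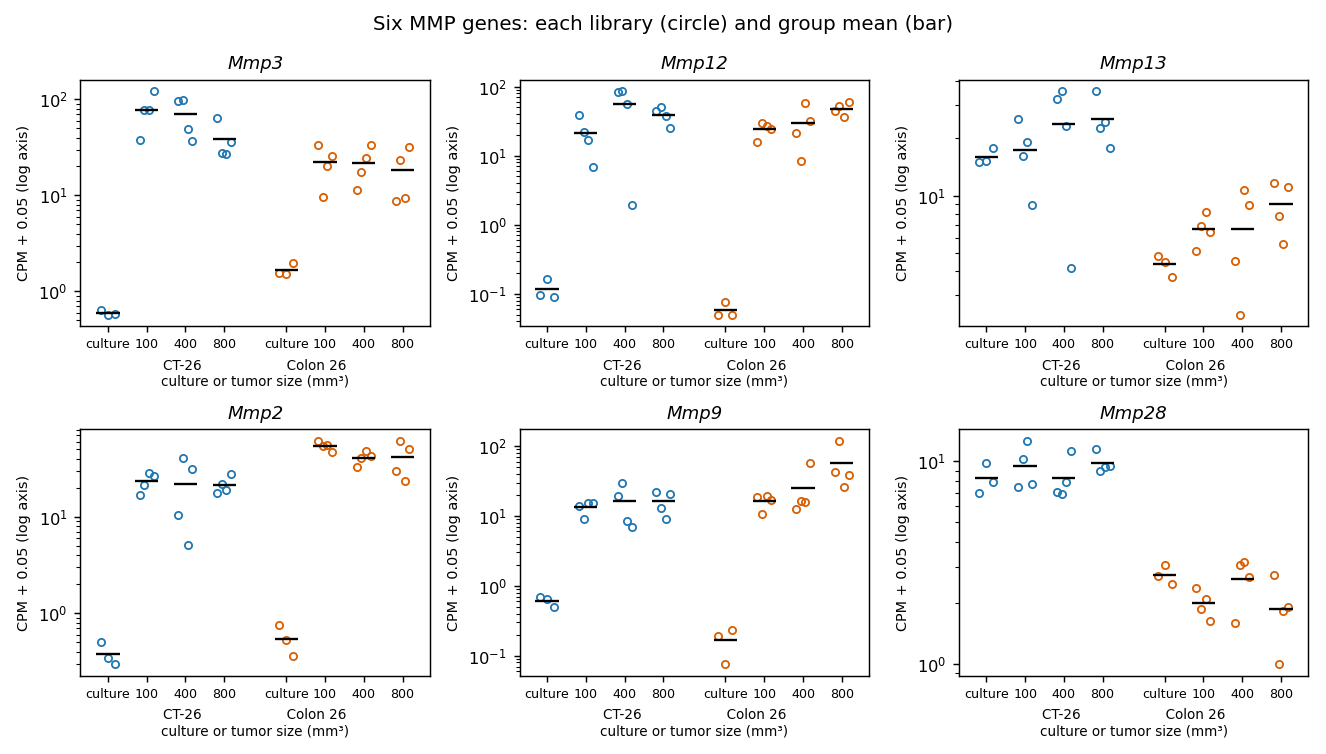
CPM of Mmp3, Mmp12, Mmp13, Mmp2, Mmp9 and Mmp28 in each of the 30 libraries (circles, on a log axis after adding 0.05) with group means (bars), CT-26 in blue and Colon 26 in orange. Mmp3, Mmp12, Mmp2 and Mmp9 stand well above the cultures in all tumors of both lines, while Mmp13 and Mmp28 are low in Colon 26 in culture and tumor alike.

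The gelatinases degrade denatured collagen and type IV collagen of basement membranes. Mmp2 was close to silent in culture, at 0.451, 0.299 and 0.247 CPM for CT-26 against 0.706, 0.479 and 0.308 CPM for Colon 26. CT-26 tumors held 17.0, 21.2, 28.4 and 26.8 CPM at 100 mm3, 10.53, 41.1, 5.03 and 31.4 at 400 mm3 and 17.5, 21.7, 18.9 and 27.7 at 800 mm3. The level in Colon 26 tumors was 61.8, 54.8, 55.8 and 46.6, then 33.1, 40.6, 48.2 and 43.1, and then 29.9, 61.4, 23.7 and 50.5 CPM. Of the 4 differences, that at 100 mm3 was called (1.22 ± 0.16, adjusted p = 2.6e-04), and the lines overlapped at 400 and 800 mm3 (0.91 ± 0.54 and 0.94 ± 0.28). Left without CT-26 replicate 2, the change at 400 mm3 was 1.40 and was called, and at 800 mm3 it was called without CT-26 replicate 4 (1.08) or Colon 26 replicate 1 (1.07) or 3 (1.14).

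Mmp9 stood at 0.631, 0.597 and 0.452 CPM in CT-26 culture and at 0.141, 0.0252 and 0.18 CPM in Colon 26 culture (-2.29 ± 0.47, adjusted p = 3.3e-04), a call lost in the fit of all 30 libraries (-2.34, adjusted p = 0.12). CT-26 tumors held 13.9, 9.01, 15.1 and 15.1, then 19.2, 29.9, 8.52 and 6.81, and then 22.0, 12.9, 9.03 and 20.7 CPM. Among Colon 26 tumors the values were 18.4, 10.6, 19.4 and 17.0, then 12.3, 16.3, 15.6 and 56.8, and then 42.8, 119.6, 25.7 and 38.7 CPM. At 800 mm3 every Colon 26 library was above every CT-26 library (1.80 ± 0.47, adjusted p = 0.0085), and at the smaller sizes the lines overlapped (0.29 ± 0.22 and 0.65 ± 0.60). At 800 mm3 the summed neutrophil markers ran from 11.1 to 12.3 CPM in Colon 26 and from 16.6 to 72.9 CPM in CT-26, with Ly6g at 3 counts or fewer in every library of both groups, and the summed macrophage markers from 2596 to 3824 CPM in Colon 26 and from 2001 to 2402 CPM in CT-26. Their part in the Mmp9 difference was not tested.

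Mmp14 was called in none of the 4 comparisons although the lines never overlapped. It read 66.7, 74.5 and 68.8 CPM in CT-26 culture and 119.5, 124 and 125 CPM in Colon 26 culture. CT-26 tumors held 109, 134, 154 and 131, then 144, 168, 147 and 133, and then 115, 137, 142 and 147 CPM, and Colon 26 tumors 210.1, 200.2, 208 and 219, then 199, 239, 238 and 234, and then 228, 216, 202 and 202 CPM. The log2 fold change was 0.78, 0.66, 0.62 and 0.63 in culture and at the 3 sizes, each with an adjusted p under the threshold. Mmp14 made up 36.7% ± 0.80 (SD, n = 3) of the summed MMP FPKM in CT-26 culture and 71.9% ± 0.50 in Colon 26 culture.

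Mmp11, stromelysin-3, and Mmp19 were called lower in cultured Colon 26 cells and in no tumor comparison. Mmp11 read 44.0, 44.4 and 43.2 CPM in CT-26 culture and 20.8, 22.8 and 22.1 CPM in Colon 26 culture (-1.03 ± 0.05, adjusted p = 4.3e-12), a call lost without Colon 26 replicate 1 (-0.99). CT-26 tumors held 17.3, 16.4, 22.9 and 16.3, then 22.9, 23.7, 28.7 and 22.0, and then 14.3, 25.5, 25.8 and 32.3 CPM, and Colon 26 tumors 33.9, 30.4, 31.4 and 33.4, then 32.5, 45.4, 51.4 and 37.4, and then 41.2, 31.7, 30.1 and 36.1 CPM. Its tumor changes of 0.82, 0.78 and 0.49 lay in the direction opposite to culture and were not called. Mmp19 read 48.4, 52.5 and 50.03 CPM in CT-26 culture and 12.6, 12.0 and 12.1 CPM in Colon 26 culture (-2.08 ± 0.04, adjusted p = 5.3e-16). In tumors the lines overlapped at every size: 38.8, 42.7, 44.8 and 73.5, then 34.8, 33.6, 32.8 and 25.3, and then 26.9, 26.0, 32.6 and 36.7 CPM in CT-26, and 52.4, 37.3, 40.5 and 38.1, then 27.2, 18.5, 26.4 and 20.1, and then 18.9, 27.0, 21.9 and 22.8 CPM in Colon 26. Mmp11 shares exon sequence with Chchd10 (0.96 and 0.08 CPM in CT-26 and Colon 26 culture) and Mmp19 with Tmem198b (12.4 and 14.2 CPM) on the other strand, and whether reads were counted by strand is not given in the sources used here, so shared reads cannot be told apart.

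Mmp28, epilysin, was lower in Colon 26 in culture and at all 3 sizes. It read 6.89, 9.78 and 7.89 CPM in CT-26 culture and 2.65, 3.03 and 2.42 CPM in Colon 26 culture (-1.64 ± 0.13, adjusted p = 6.9e-09). CT-26 tumors held 7.39, 10.3, 12.6 and 7.63, then 6.98, 6.82, 7.82 and 11.1, and then 11.4, 8.95, 9.33 and 9.39 CPM. Colon 26 tumors held 2.32, 1.81, 2.05 and 1.58, then 1.54, 3.01, 3.13 and 2.62, and then 2.71, 0.944, 1.77 and 1.86 CPM, below every CT-26 library. The changes were -2.29 ± 0.21, -1.67 ± 0.25 and -2.44 ± 0.26 (adjusted p = 3.8e-05, 7.9e-04 and 3.1e-05). Its exons overlap those of 1700020L24Rik, which averaged 0.71 CPM in CT-26 culture and 0.19 CPM in that of Colon 26. Mmp23 was called higher in Colon 26 at 100 mm3 (1.43 ± 0.17, adjusted p = 1.6e-04) and 800 mm3 (1.32 ± 0.39, adjusted p = 0.016). Its levels were 0.496, 0.784 and 0.822 CPM in CT-26 culture and 0.621, 0.807 and 0.54 CPM in Colon 26 culture, then 0.996, 0.894, 1.19 and 1.27, 0.67, 2.48, 0.271 and 1.66, and 1.89, 1.02, 0.705 and 0.865 CPM in CT-26 tumors, and 3.2, 3.06, 2.98 and 2.59, 3.38, 2.24, 1.97 and 2.29, and 2.1, 4.28, 1.57 and 3.25 CPM in Colon 26 tumors. Its lines overlapped in culture and at 400 and 800 mm3, and were apart at 100 mm3. At 400 mm3 it was called (1.52) without CT-26 replicate 2.

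Mmp12, the macrophage metalloelastase, was called in no line comparison. It read 39.1, 21.7, 16.7 and 6.91 CPM at 100 mm3, 82.3, 86.7, 56.2 and 1.87 at 400 mm3 and 44.0, 50.4, 37.5 and 24.9 at 800 mm3 in CT-26 tumors, and 16.002, 29.8, 27.0 and 24.3, then 21.3, 8.23, 58.3 and 31.8, and then 44.1, 51.7, 36.1 and 59.0 CPM in Colon 26 tumors. The lines overlapped at each size. The change at 400 mm3 was -0.92 ± 0.88, and without CT-26 replicate 4 it was -1.32 and was called. In that size group the summed macrophage markers ran from 587 to 2120 CPM for CT-26 and from 1735 to 4136 CPM in Colon 26. CT-26 replicate 4, the lowest in Mmp12, had 1957 CPM of these markers. The 587 CPM belonged to CT-26 replicate 3, which read 56.2 CPM of Mmp12. The part of macrophages in the Mmp12 levels was not tested.

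To ask which genes differ between cultured cells and a tumor with its host cells, tumors of 100 mm3 were compared with the culture of the same line. In CT-26, 18 of 28 genes tested were called, 17 higher and 1 lower in the tumor, against 32.2% of all genes tested (22.2% higher and 10.1% lower). In Colon 26, 16 of 29 were called, 16 higher and 0 lower, against 26.9% (20.8% higher and 6.12% lower). The median log2 fold change was 2.05 and 1.55 for these genes, and 0.06 and 0.05 for all genes tested. Genes whose groups did not overlap numbered 21 and 26, against 71.6% and 75.1% of all genes tested.

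Several genes close to silent in culture rose. Mmp12 read 0.0451, 0.112 and 0.0411 CPM in CT-26 culture and was at least 156-fold higher in its tumors. The Colon 26 cultures read 0, 0.0252 and 0 CPM, and their tumors were at least 286-fold higher. Adamts2 was at least 160-fold higher in CT-26 tumors and at least 683-fold higher in Colon 26 tumors. Mmp2 rose by a log2 fold change of 6.13 ± 0.30 in CT-26 and 6.87 ± 0.18 in Colon 26 (adjusted p = 1.3e-06 and 6.0e-09), and Mmp9 by 4.55 ± 0.26 and 7.19 ± 0.39 (adjusted p = 2.5e-06 and 3.5e-07). The membrane-type MMP genes Mmp15 (5.15 ± 0.84 and 6.65 ± 0.49) and Mmp25 (6.05 ± 0.85 in CT-26, and at least 45.3-fold in Colon 26) rose in both lines, and so did Adamts4 (2.61 ± 0.28 and 3.43 ± 0.08), Adamts7 (4.30 ± 0.43 and 3.24 ± 0.15) and Timp1 (1.29 ± 0.14 and 1.34 ± 0.05). Adamts7 shares exon sequence with Tbc1d2b on the other strand, which averaged 33.6 CPM in CT-26 culture. Mmp14 was 0.91 and 0.85 higher on the log2 scale, under the fold threshold in both lines.

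Markers of host cells moved with these genes. Summed macrophage markers (8 genes) ran from 63.5 to 74.0 CPM in CT-26 culture, with Adgre1 at 3 counts or fewer, and from 2048 to 3491 CPM in its tumors of 100 mm3. In Colon 26 they ran from 7.38 to 8.92 CPM, with Adgre1, Csf1r, C1qa and C1qb at 3 counts or fewer, and from 3354 to 3955 CPM in tumors. Fibroblast markers (6 genes) went from 63.6 to 69.8 CPM and 111 to 118 CPM in the cultures, with Lum at 3 counts or fewer in both, to 827 to 1607 and 1406 to 1967 CPM. The part of host cells in the rises was not tested, and tissue and library series cannot be told apart.

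**Figure D5:**
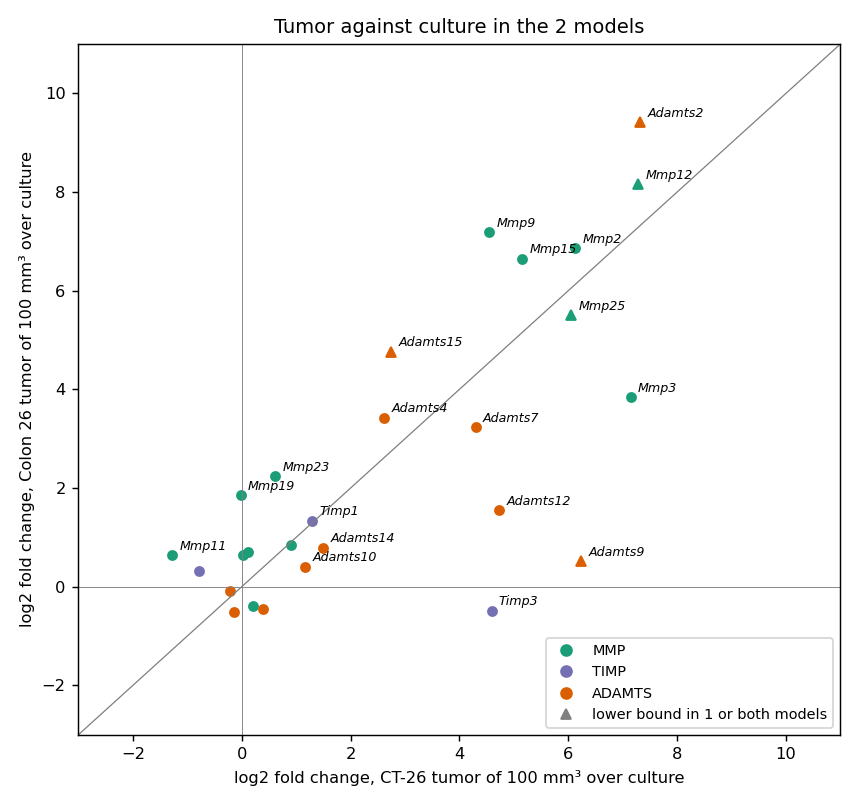
Log2 fold change of tumors of 100 mm3 over culture in CT-26 (horizontal) and Colon 26 (vertical) for the 27 genes tested in both, colored by family; triangles mark values that are a lower bound in 1 or both lines, and the diagonal marks equal change. Most named genes lie up and to the right in both lines, while Timp3, Adamts9, Adamts12 and Mmp3 lie to the right of the diagonal, with a larger rise in CT-26.

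Whether the difference between the lines itself changed from culture to tumors of 100 mm3 was tested with an interaction term over 14 libraries. It was called for 12 of 30 genes tested, against 17.6% of all genes tested (8.29% positive and 9.31% negative). In 5 genes the interaction was negative, a larger rise in CT-26: it was -5.12 ± 0.24 for Timp3 (adjusted p = 5.1e-09), -3.36 ± 0.79 for Mmp3 (adjusted p = 0.0034), -3.23 ± 0.73 for Adamts12 (adjusted p = 0.0024), -7.87 ± 0.74 for Adamts9 and -1.12 ± 0.45 for Adamts7. Timp3 rose in CT-26 (4.59 ± 0.18, adjusted p = 6.3e-07), and in Colon 26 it was 0.48 lower in tumors on the log2 scale, under the fold threshold. Adamts9 was at least 75.7-fold higher in CT-26 tumors than in CT-26 culture, and 0.52 higher on the log2 scale in Colon 26. Adamts12 rose by 4.73 ± 0.68 in CT-26 and 1.55 ± 0.17 in Colon 26, and Mmp3 by 7.15 ± 0.52 and 3.84 ± 0.42.

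In the other 7 genes the interaction was positive: Mmp9 (2.58 ± 0.56), Mmp11 (1.87 ± 0.14), Mmp19 (1.83 ± 0.25), Mmp23 (1.58 ± 0.30), Timp2 (1.06 ± 0.10), Adamts2 (5.25 ± 1.29) and Adamts13 (2.43 ± 0.87). In the fit of all 30 libraries the calls of Mmp9 (2.63, adjusted p = 0.13) and Adamts2 (5.24, adjusted p = 0.15) were lost, and with limma those of Adamts13 (0.82), Adamts12 (-0.81) and Adamts7 (-0.70) were. Adamts13 was too low to test without CT-26 tumor replicate 2 or 4 or Colon 26 tumor replicate 1 or 2. Mmp11 was the 1 gene called lower in CT-26 tumors (-1.28 ± 0.12, adjusted p = 3.5e-05), and it was 0.64 higher in Colon 26 tumors. Timp2 also fell in CT-26 tumors, under the fold threshold (-0.78, edgeR adjusted p = 1.9e-05), and was 0.33 higher in Colon 26 tumors. Mmp19 rose in Colon 26 (1.86 ± 0.11, adjusted p = 7.3e-07) and was -0.02 ± 0.20 in CT-26, and Mmp23 rose by 2.25 ± 0.19 in Colon 26 and was 0.62 higher in CT-26. Interaction values of Adamts2, Adamts9 and Adamts13 rest on groups at 3 counts or fewer in every library, so their size depends on the model's prior.

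As over all genes tested, few of these genes were called between tumors of 100 and 800 mm3. In CT-26, 0 of 28 genes tested were called by edgeR, against 0.0% of all genes tested; 5 had an unadjusted p under 0.05, and DESeq2 called 0 of the 28. The 5 were Mmp3, Mmp8, Mmp19, Timp1 and Timp3. For 3 genes the sizes did not overlap, against 4.92% of all genes tested. In Colon 26, 1 of 28 was called, against 1.33% of all genes tested (0.169% higher), and 4 did not overlap, against 12.7%. The gene called was Mmp9, from a mean of 16.3 to 56.7 CPM (1.79 ± 0.44, adjusted p = 0.066). All 4 libraries of 800 mm3 were above the 4 of 100 mm3, and the call was lost without any 1 of 6 libraries, the 4 of 100 mm3 and replicates 1 and 4 of 800 mm3, with changes of 1.64 to 1.95. Over the same growth skeletal muscle markers fell for 5 of 5 genes (median -8.80), mast cell markers for 3 of 4 (median -1.88) and 1 of 6 fibroblast markers, Lum (-1.11), while 0 of 8 macrophage and 0 of 4 tested neutrophil markers were called (medians -0.12 and -0.11); their part in the Mmp9 rise was not tested. Mmp12 (0.96 ± 0.20), Mmp19 (-0.90 ± 0.13) and Adamts2 (-0.75 ± 0.12) had an adjusted p of 0.043, 0.012 and 0.017 in Colon 26, with changes under the fold threshold; without 1 of 4 libraries (replicates 2 and 3 of 100 mm3, 1 and 3 of 800 mm3) Mmp12 was called (1.002 to 1.09), and without replicate 2 of 800 mm3 Mmp19 was called (-1.004). The interaction of line and size was called for 0 of 29 genes by edgeR, against 0.0308% of all genes tested, and 4 (Mmp9, Timp1, Adamts2 and Adamts10) had an unadjusted p under 0.05; DESeq2 called 0 of the 29. For Mmp9 it was 1.5, with an approximate 95% interval of 0.37 to 2.63 and an edgeR adjusted p of 0.29.

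Summed over each family, the MMP genes gave 73.5 ± 0.28 FPKM (SD, n = 3) in CT-26 culture and 65.1 ± 1.8 in Colon 26 culture, and group means of 143 to 170 FPKM in CT-26 tumors and 169 to 184 FPKM in Colon 26 tumors. The TIMP genes gave 400.0 ± 4.6 and 378 ± 7.9 FPKM in culture, 539 to 653 FPKM in CT-26 tumors and 480 to 526 FPKM in Colon 26 tumors. The ratio of the TIMP to the MMP sum was 5.44 ± 0.054 in CT-26 culture and 5.80 ± 0.19 in Colon 26 culture, and 3.65 ± 0.89, 3.39 ± 1.0 and 4.62 ± 0.84 in CT-26 tumors by rising size (SD, n = 4). In Colon 26 tumors it was 3.05 ± 0.15, 3.07 ± 0.49 and 2.64 ± 0.34. All tumor libraries lay below the cultures of their line. The TIMP sums of the cultures were made up of different genes: Timp3 was 0.43 FPKM in CT-26 and 142 FPKM in Colon 26, Timp2 236 and 137 FPKM, and Timp1 164 and 98.6 FPKM. ADAMTS sums were 18.3 ± 1.0 and 26.2 ± 1.5 FPKM in culture, and 35.2 to 36.6 and 42.4 to 44.5 FPKM in tumors.

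Other genes that act on the same matrix were read from lists chosen by function. Of 9 genes of plasminogen activation, the serine protease system that can activate pro-MMPs, 5 were tested in culture: Plau, the urokinase gene, was higher in Colon 26 (6.94) and Serpinb2, an inhibitor of urokinase, lower (-7.67). At the 3 tumor sizes 7 were tested and 1, 2 and 2 were called higher, none lower. Serpinb2 was among them at 100 mm3 (1.62) and 800 mm3 (2.82), opposite to its direction in culture. Plau was called at no tumor size. Of 12 other MMP regulators, 8 were tested in culture and 2 were higher, Thbs1 (3.15) and Thbs2 (1.62), and 2, 1 and 3 were called higher at the 3 tumor sizes, none lower. Of 11 ADAM genes, the membrane-bound relatives of ADAMTS, 8 were tested in culture (3 higher, 1 lower), and Adam12 was higher in Colon 26 in culture and at all 3 sizes (4.67, 1.51, 1.36 and 1.39). Of 7 ADAMTS-like genes, which lack the protease domain, 4 were tested in culture (1 higher, 1 lower) and 6 at each tumor size (5, 4 and 4 higher, 1 lower each time); the lower one was Thsd4 throughout (-3.02, -3.99, -4.29 and -4.13). Of 13 other matrix proteases, 6 were tested in culture (2 higher, 3 lower) and 10 at each tumor size (2, 1 and 2 higher, 1 lower each time). Htra1 was higher in Colon 26 in all 4 comparisons (4.11, 4.61, 4.33 and 4.57), and Ctsl lower in all 4 (-1.43, -1.10, -1.30 and -1.32). Of the 12 AP-1 and partner factors, all tested, Atf3 was the 1 called in culture (7.79), and 2, 0 and 2 were called at the 3 tumor sizes. Counts for these lists over all genes tested are the percentages given above, 22.9% in culture and 13.2% to 14.3% in tumors.

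Most of the remaining members were low. Between 16 and 23 of the 46 were too low to test in a given comparison, and 15 were tested in none of the 10. Mmp1b, whose exons overlap those of Mmp12 on the other strand, never averaged more than 0.09 CPM, Mmp20 reached at most 4 counts, and Timp4 at most 4. Mmp10, in the same cluster as Mmp3, had more than 3 counts in 29 libraries but was called in no comparison; without 1 library it was called higher in Colon 26 at 100 mm3 (CT-26 replicate 4 or Colon 26 replicate 2; 1.34 and 1.19), 400 mm3 (CT-26 replicate 1; 1.28) and 800 mm3 (CT-26 replicate 1; 1.53). Adamts1 and Adamts10 were among the most abundant ADAMTS genes, and the 1 call between them was Adamts10 in CT-26 tumors over culture (1.17 ± 0.18, adjusted p = 5.8e-04).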

How the data were processed

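RNA-seq was made from 6 culture and 24 tumor libraries. The authors processed the reads with Array Studio against an Ensembl release 78 gene model and deposited estimated counts (expected counts) and FPKM values per gene; aligner, genome build and strand handling are not given in the sources used here, and DESeq2 1.24.0 is named in the submitters' processing notes. Of the nonzero deposited counts, 23.0% were not whole, so counts were rounded. Symbols matched 52207 of 53431 gene IDs (97.7%), and coordinates come from GENCODE M21 (GRCm38). The members and lists were chosen with earlier results of these data known.

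Counts were tested with edgeR 4.0.16 (R 4.3.3): TMM factors, filterByExpr, and the quasi-likelihood F test with Benjamini-Hochberg adjustment over all genes tested, using only the libraries of each of 10 comparisons. A call needed an adjusted p of 0.1 or lower and a log2 fold change of 1 or more in size. Standard errors (SE) were the size of the log2 fold change divided by the square root of the F statistic. The 95% interval was taken from them with the normal distribution, so it is narrower than one that counts the residual degrees of freedom. A fold against a group with at most 3 counts in every library is given as a lower bound, with the floor of 3 counts set per library. This bound is not a confidence limit, and it leaves out the counting error and spread of both groups. Genes given with values in every library were those called in at least 1 of the 4 line comparisons with a mean count of at least 50, plus the 5 with the highest mean FPKM (19 genes); others are given by count, or by value where called or where a result turns on them. Library totals were 21384730 to 39722586 counts. Alternatives were DESeq2 1.42.0, RLE or library size scaling, no filter, a mean count of at least 10, a fit of all 30 libraries, limma 3.58.1 on log2(FPKM + 0.1), an adjusted p of at most 0.05, no minimum fold change, and leaving out each library. The fits were also run on simulated counts drawn with the same relative spread for every gene. That setting is simpler than the spread between tumors, so the run does not bear on the tumor calls.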

Additional observations from a re-analysis of the deposited data

Results flagged for a closer look

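In 6 of 112 groups of 4 tumors examined, 1 library stood apart from the other 3, where chance alone gives about 1 group in 20. Mmp9 read 56.8 CPM in Colon 26 replicate 4 of 400 mm3 against 12.3 to 16.3 CPM in the others, and Mmp11 read 22.9 CPM in CT-26 replicate 3 of 100 mm3 against 16.3 to 17.3 CPM. Mmp14 read 199 CPM in Colon 26 replicate 1 of 400 mm3 against 234 to 239 CPM. Adamts14 stood apart in the same Colon 26 tumor (40.6 against 22.9 to 25.5 CPM) and in CT-26 replicate 4 of 400 mm3 (22.4 against 32.1 to 33.9 CPM). Adamts15 read 4.44 CPM in Colon 26 replicate 1 of 100 mm3 against 1.42 to 1.86 CPM.

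The change from culture to tumors of 100 mm3 differed between the lines, by the interaction test, in 12 genes. On the log2 scale, as Colon 26 minus CT-26, it was -7.87 for Adamts9, -5.12 for Timp3, -3.36 for Mmp3, -3.23 for Adamts12 and -1.12 for Adamts7. It was 5.25 for Adamts2, 2.58 for Mmp9, 2.43 for Adamts13, 1.87 for Mmp11, 1.83 for Mmp19, 1.58 for Mmp23 and 1.06 for Timp2.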

How the results depend on the processing

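No called result changed direction under any alternative run. Of values not called, 8 changed sign when 1 library was left out; over such fits the range was -0.83 to 0.71 for Adamts15, -0.33 to 0.025 for Adamts14 and -0.12 to 1.13 for Mmp9 at 400 mm3, and -0.27 to 0.085 for Mmp19 and -0.13 to 0.32 for Mmp13 in CT-26 tumors over culture. Of the 3 signs of Mmp19 that changed, the others were 0.037 and 0.0375, and the second of Adamts15 was 0.0085; the cause was not tested. Without a minimum fold change the counts of members called were 20 in culture, 18, 16 and 23 in tumors of 100, 400 and 800 mm3, 27 in Colon 26 tumors over culture and 4 in Colon 26 growth. At an adjusted p of at most 0.05 the Colon 26 growth count was 0. Leaving out each library gave 11 to 13 in culture, 10 to 13, 10 to 12 and 11 to 13 at the 3 sizes, 16 to 19 (CT-26) and 15 to 16 (Colon 26) for tumor over culture, 0 to 0 and 0 to 2 for growth, 11 to 13 for the interaction with culture and 0 to 0 for that with size. The median over all genes tested moved from 0.05 to 0.19 (log2) with DESeq2 for Colon 26 tumors over culture, where DESeq2 tested 21499 genes and edgeR 15946. Line comparison and growth calls that leaving out a library ended are named in the report. Adamts7 in the interaction with culture was lost without CT-26 tumor replicate 3 or replicate 2 or 3 of either culture (-1.08 to -0.86). In tumors over culture, Mmp8 in CT-26 (without any 1 tumor), Adamts15 in CT-26 (without tumor replicate 2, 3 or 4) and Adamts8 in Colon 26 (without tumor replicate 1, 2 or 4) became too low to test. With limma 8 calls were lost: Adamts6 (-0.95) and Adamts13 (-0.96) in culture, Adamts15 (0.98) and Adamts16 (0.84) at 100 mm3, Adamts8 in Colon 26 tumors over culture (0.85), and the interactions with culture of Adamts12 (-0.81), Adamts13 (0.82) and Adamts7 (-0.70). In the fit of all 30 libraries 5 were lost: Mmp3 (1.48) and Mmp9 (-2.34) in culture, Adamts15 at 100 mm3 (1.33), and the interactions of Mmp9 (2.63) and Adamts2 (5.24). Without a filter Mmp11 (-0.96) and Adamts6 (-0.95) in culture were lost, with DESeq2 Mmp3 at 800 mm3 (-1.08), and at an adjusted p of at most 0.05 Adamts15 at 100 mm3, Mmp3 at 800 mm3, Mmp9 in Colon 26 growth and the Adamts7 interaction. With a mean count of at least 10, Mmp9 and Adamts13 in culture, Mmp8 and Adamts8 in tumors over culture and the Adamts13 interaction were not tested. The direction of the line difference was the same in FPKM as in CPM for all 76 pairs of gene and condition compared. No paired analysis was possible because the labels give no replicate numbers. Depth limits the low genes: 15 of 46 members were too low to test in any comparison.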
